A study of Mus musculus with 16 samples.

Results

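The genes described here are 10 regulators of the G1 phase of the cell cycle, taken by name from the deposited gene tables, which list 24982 genes: the INK4 inhibitors Cdkn2a and Cdkn2b, the CIP/KIP inhibitors Cdkn1a, Cdkn1b and Cdkn1c, the D-type cyclins Ccnd1, Ccnd2 and Ccnd3, and the kinases Cdk4 and Cdk6. All 10 were found in the count table and in the TPM table, and all 10 had counts. They were measured by stranded, polyadenylated RNA-seq in 16 macrodissected rhabdoid tumors, each from a different mouse. In these mice (Smarcb1 flox/flox; R26-CreERT2, mixed genetic background) tamoxifen given to the pregnant dam switched on a Cre expressed in all cell types, so that loss of Smarcb1, a core subunit of the SWI/SNF remodelling complex, was not restricted to a chosen cell type.

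Separate mice are the replicates, with 1 tumor each. The labels give the site of each tumor. There were 5 tumors within the brain parenchyma (intra-CNS), all induced at E6 and taken at 30 to 180 days of age. A further 6 tumors grew within the skull without lying in the brain tissue (intracranial extra-CNS). Tamoxifen was given at E8 for 4 of them, at E7 for 1 and at E6 for 1, and their ages were 52 to 170 days. The last 5 were extracranial, in the back, jaw, nose or mouth, with induction at E8 for 4 and at E6 for 1 and ages of 80 to 210 days. The study's sample list places the intra-CNS tumors in the Shh subgroup and the others in the Myc subgroup. The tumor of mouse 43990A is extracranial by its label and intracranial in that list, and was kept as labelled. Since all intra-CNS tumors were induced at E6, site and day of induction cannot be told apart except through the 2 extra-CNS tumors of E6.

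Progression through G1 depends on D-type cyclins, which bind and activate Cdk4 or Cdk6 so that these kinases phosphorylate the retinoblastoma protein and release E2F transcription factors. INK4 proteins bind the kinases directly and keep the cyclins off. CIP/KIP proteins bind cyclin-kinase complexes, inhibit Cdk2 complexes, and can also help to assemble cyclin D with its kinase. The Cdkn2a locus encodes, from separate starts and in different reading frames, p16Ink4a and p19Arf, the latter of which protects p53 from Mdm2. Rhabdoid tumors carry few mutations besides the loss of SMARCB1, and the INK4 locus and cyclin D1 are long-known points of SMARCB1 action in such cells.

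Total counts ranged from 17889968 to 110177889 per tumor, and the lowest count of any of the 10 genes in any tumor was 22. Among the 5 intra-CNS tumors Smarcb1 stood at 3.99 to 9.91 TPM in 4 and at 58.1 TPM in that of mouse 29048, and among the extra-CNS tumors it ran from 6.48 TPM to 43.7 TPM in that of mouse R26P115. The tumor of 29048 also held 7354 TPM of summed oligodendrocyte markers against 54.0 to 191 TPM in the other intra-CNS tumors. The tumor of R26P115 held 8.73 TPM of Myc against 87.0 TPM or more in every other extra-CNS tumor, and 2.11 TPM of Mki67, a marker of cycling cells. Both tumors stand apart from their groups, so that the tests of the 10 genes are also given without them. Neuron, astrocyte, macrophage and fibroblast markers were detected in each group. In bulk RNA fewer cells of a type cannot be told apart from less RNA per cell.

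The 250 bases before the start are shown for Cdkn2a and Cdkn2b, which are neighbours on chromosome 4, and for Cdkn1a on chromosome 17, since these inhibitors were all lower in intra-CNS tumors, and for Cdk4, a partner in the pathway whose difference was not called. The sequences are RefSeq windows of GRCm38.p6, written 5′ to 3′ on the strand of the gene, and capitals mark matches, on either strand, to an E-box (CACGTG), an E2F element (TTTCGCGC, TTTGGCGC, TTTCCCGC or TTTGCCGC), a GC box (GGGCGG) or a TATA box (TATAAA). RefSeq windows were matched for 7 of the 10 genes, 10 windows in all, and the others are Ccnd1, Ccnd2 and Cdkn1c. The windows printed lie at chr4:89294620-89294869 (minus strand) for the Arf start of Cdkn2a, chr4:89282193-89282442 (minus strand) for its Ink4a start, chr4:89311033-89311282 (minus strand) for Cdkn2b, chr17:29093519-29093768 (plus strand) for the downstream start of Cdkn1a, and chr10:127063285-127063534 (plus strand) for Cdk4.
Cdkn2a, Arf start: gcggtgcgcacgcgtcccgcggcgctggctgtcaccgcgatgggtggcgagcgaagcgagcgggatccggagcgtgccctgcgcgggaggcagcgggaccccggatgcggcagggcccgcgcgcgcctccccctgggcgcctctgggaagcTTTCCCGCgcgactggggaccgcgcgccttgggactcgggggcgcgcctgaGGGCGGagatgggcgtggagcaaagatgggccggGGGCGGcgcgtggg
Cdkn2a, Ink4a start: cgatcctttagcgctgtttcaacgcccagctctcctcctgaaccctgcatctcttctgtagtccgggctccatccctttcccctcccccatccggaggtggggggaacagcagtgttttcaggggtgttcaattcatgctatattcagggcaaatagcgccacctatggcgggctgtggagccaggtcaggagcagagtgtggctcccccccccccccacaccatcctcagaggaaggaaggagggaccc
Cdkn2b: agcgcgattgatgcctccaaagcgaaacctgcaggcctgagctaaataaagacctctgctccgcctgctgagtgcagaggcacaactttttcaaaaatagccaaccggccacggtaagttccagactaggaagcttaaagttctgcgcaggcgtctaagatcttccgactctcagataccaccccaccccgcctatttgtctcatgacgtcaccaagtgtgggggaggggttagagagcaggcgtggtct
Cdkn1a: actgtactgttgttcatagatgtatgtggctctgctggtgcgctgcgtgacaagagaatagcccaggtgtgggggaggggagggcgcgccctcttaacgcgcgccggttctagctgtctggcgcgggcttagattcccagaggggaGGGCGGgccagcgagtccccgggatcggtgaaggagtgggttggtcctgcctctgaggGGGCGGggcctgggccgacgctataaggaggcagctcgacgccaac
Cdk4: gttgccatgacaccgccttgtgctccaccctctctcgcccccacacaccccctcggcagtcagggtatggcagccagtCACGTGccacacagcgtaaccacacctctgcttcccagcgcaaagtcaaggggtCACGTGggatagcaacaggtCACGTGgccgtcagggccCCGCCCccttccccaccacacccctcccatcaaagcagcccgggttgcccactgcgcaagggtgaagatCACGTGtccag
The Arf window held 1 E2F element and 2 GC boxes in 78.4% G and C, whereas the Ink4a and Cdkn2b windows held none of the 4 motifs at 60% and 53.6%. The Cdkn1a window held 2 GC boxes, and that of the upstream Cdkn1a start, not shown, held none of the 4 motifs. The Cdk4 window held 4 E-boxes and 1 GC box. Among 32851 RefSeq windows of the same length, 6.02% held an E-box, 1.86% an E2F element, 32.7% a GC box and 12.4% a TATA box. A match states only that the letters are present.

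Cdkn2a (ENSMUSG00000044303.6, chr4:89274471-89294653, minus strand, GRCm38) was higher than Cdkn2b, the other INK4 gene of the 10, in 15 of 16 tumors, the exception being that of 29048. In the intra-CNS tumors it stood at 6.06 TPM in 29048, 10.8 in 38594A, 8.17 in 29050A, 28.1 in R26P98 and 6.92 in R26P87. In the extracranial tumors it stood at 54.2 TPM in 43825B, 79.7 in 43987A, 40.4 in 43990A, 47.8 in 43998A and 55.9 in R26P123, and in the intracranial extra-CNS tumors the lowest was 11.3 TPM, the median 83.8 and the highest 214. Each extracranial tumor lay above each intra-CNS tumor, and of the intracranial tumors only that of R26P115, the lowest, fell within the intra-CNS range. The mean was 12.02 ± 9.17 TPM (SD, n = 5) in intra-CNS and 79.6 ± 57.0 TPM (SD, n = 11) in extra-CNS tumors. Cdkn2a was 9.41-fold lower in intra-CNS tumors (log2 fold change -3.23, SE 0.61; edgeR quasi-likelihood test, Benjamini-Hochberg adjusted p = 0.00078). Without 29048 and R26P115 the log2 fold change was -3.18 (adjusted p = 0.00075, same edgeR test). Without R26P98, its highest intra-CNS value, it was -3.83 (edgeR adjusted p = 0.00045), and against the intracranial and extracranial tumors by themselves -4.15 (adjusted p = 0.00052) and -3.31 (0.0015). Counts were made per gene, so that transcripts of p16Ink4a and p19Arf, which share exons, were not separated.

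Cdkn2b (ENSMUSG00000073802.5, chr4:89306299-89311039, minus strand), which encodes p15Ink4b, lies next to Cdkn2a and was the lowest of the 10 genes in intra-CNS tumors. It stood there at 7.62 TPM in 29048, 8.96 in 38594A, 3.53 in 29050A, 11.9 in R26P98 and 5.96 in R26P87. In the extracranial tumors it stood at 11.4 TPM in 43825B, 32.8 in 43987A, 10.5 in 43990A, 18.3 in 43998A and 13.4 in R26P123, and in the intracranial ones the lowest was 3.73 TPM, again in R26P115, the median 15.5 and the highest 27.6. The groups overlapped, and R26P115 lay below 4 of the 5 intra-CNS tumors. Cdkn2b was 3.21-fold lower in intra-CNS tumors (log2 fold change -1.68, SE 0.45; edgeR quasi-likelihood test, Benjamini-Hochberg adjusted p = 0.0089), and the value was -1.78 (adjusted p = 0.0057) without 29048 and R26P115. Among tumors induced at E6 alone, 5 against 2, it was -1.91 with an adjusted p of 0.051 by the same edgeR test, and limma on log2(TPM + 1) gave -0.97 with an adjusted p of 0.058.

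Mtap, the metabolic gene on the other side of Cdkn2a (chr4:89137122-89181081), was 4.31-fold lower in intra-CNS tumors (log2 fold change -2.11, SE 0.37; edgeR adjusted p = 0.00043; without 29048 and R26P115, -2.12 and 0.00082). It ran from 30.4 to 49.4 TPM in intra-CNS and from 45.6 to 217 TPM in extra-CNS tumors. Dmrta1, on the far side of Cdkn2b, had a log2 fold change of 1.59 and was not called by edgeR (adjusted p = 0.074), but DESeq2 called it higher, as did edgeR against the extracranial tumors alone (log2 fold change 2.52, adjusted p = 0.026).

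Cdkn1a (ENSMUSG00000023067.14, chr17:29090976-29100727, plus strand), which encodes p21 and is a classical target of p53, showed the largest difference of the 10 genes. In intra-CNS tumors it stood at 36.6 TPM in 29048, 49.5 in 38594A, 14.0 in 29050A, 53.5 in R26P98 and 17.9 in R26P87. In extracranial tumors it stood at 228 TPM in 43825B, 467 in 43987A, 177 in 43990A, 242 in 43998A and 384 in R26P123, and in intracranial ones the lowest was 45.0 TPM, the median 407 and the highest 532. Apart from R26P115 at 45.0 TPM, every extra-CNS tumor lay above every intra-CNS tumor. The mean was 34.3 ± 18.0 TPM (SD, n = 5) in intra-CNS and 326 ± 164 TPM (SD, n = 11) in extra-CNS tumors. Cdkn1a was 13.5-fold lower in intra-CNS tumors (log2 fold change -3.75, SE 0.53; edgeR quasi-likelihood test, Benjamini-Hochberg adjusted p = 9.3e-05), and the value was -3.89 (adjusted p = 5.88e-05) without 29048 and R26P115.

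Cdkn1b (ENSMUSG00000003031.14, chr6:134920401-134925513, plus strand), which encodes p27, lay on the opposite side. In intra-CNS tumors it stood at 145 TPM in 29048, 226 in 38594A, 249 in 29050A, 207 in R26P98 and 136 in R26P87. In extracranial tumors it stood at 135 TPM in 43825B, 100.5 in 43987A, 134 in 43990A, 93.2 in 43998A and 102 in R26P123, and in intracranial ones the lowest was 37.1 TPM, the median 85.5 and the highest 125. It was the only one of the 10 genes whose TPM values did not overlap between intra-CNS and extra-CNS tumors, a property held by 20.5% of the 14803 genes with 50 or more counts on average (17.2% in the same direction), although the gap between 135 and 136 TPM was small. In the test on counts the difference was not called (log2 fold change 0.47, SE 0.23; edgeR quasi-likelihood test, Benjamini-Hochberg adjusted p = 0.127). On the log2(TPM + 1) scale it was 1.02, which limma called at an adjusted p of 0.0042. Without 29048 and R26P115 the edgeR values were 0.48 and 0.075.

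The scales also differ in the median over all genes. The median log2 fold change over all genes was -0.15 in the edgeR fit and 0.20 with limma on log2(TPM + 1), and of the genes called 49.7% were higher in intra-CNS tumors in the first and 75.5% in the second. Relative to the median of its own fit, Cdkn1b differed by 0.62 in the first and 0.82 in the second, Cdkn2a by -3.09 and -2.72, and Cdkn1a by -3.60 and -3.34.

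Cdkn1c (ENSMUSG00000037664.13, chr7:143458339-143461050, minus strand), which encodes p57 and is expressed from the maternal allele of an imprinted domain, varied most from tumor to tumor. In intra-CNS tumors it stood at 52.97 TPM in 29048, 89.6 in 38594A, 67.7 in 29050A, 72.1 in R26P98 and 417 in R26P87. In extracranial tumors it stood at 6.05 TPM in 43825B, 12.3 in 43987A, 28.9 in 43990A, 0.838 in 43998A and 12.1 in R26P123, and in intracranial ones the lowest was 6.42 TPM, the median 11.6 and the highest 183, in R26P115. All extracranial tumors lay below all intra-CNS tumors, and of the intracranial ones 29225D at 63.9 TPM and R26P115 fell within the intra-CNS range. Over all extra-CNS tumors the difference was not called (log2 fold change 1.54, SE 0.91; edgeR quasi-likelihood test, Benjamini-Hochberg adjusted p = 0.199). Without R26P115 it was called, with a log2 fold change of 2.64 and an adjusted p of 0.0069, and without both tumors the values were 2.85 and 0.0074. Without R26P87, its highest intra-CNS value, the log2 fold change was 0.56 (adjusted p = 0.676). On log2(TPM + 1) limma called Cdkn1c with all tumors included, at 2.76 (adjusted p = 0.014).

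**Figure D1:**
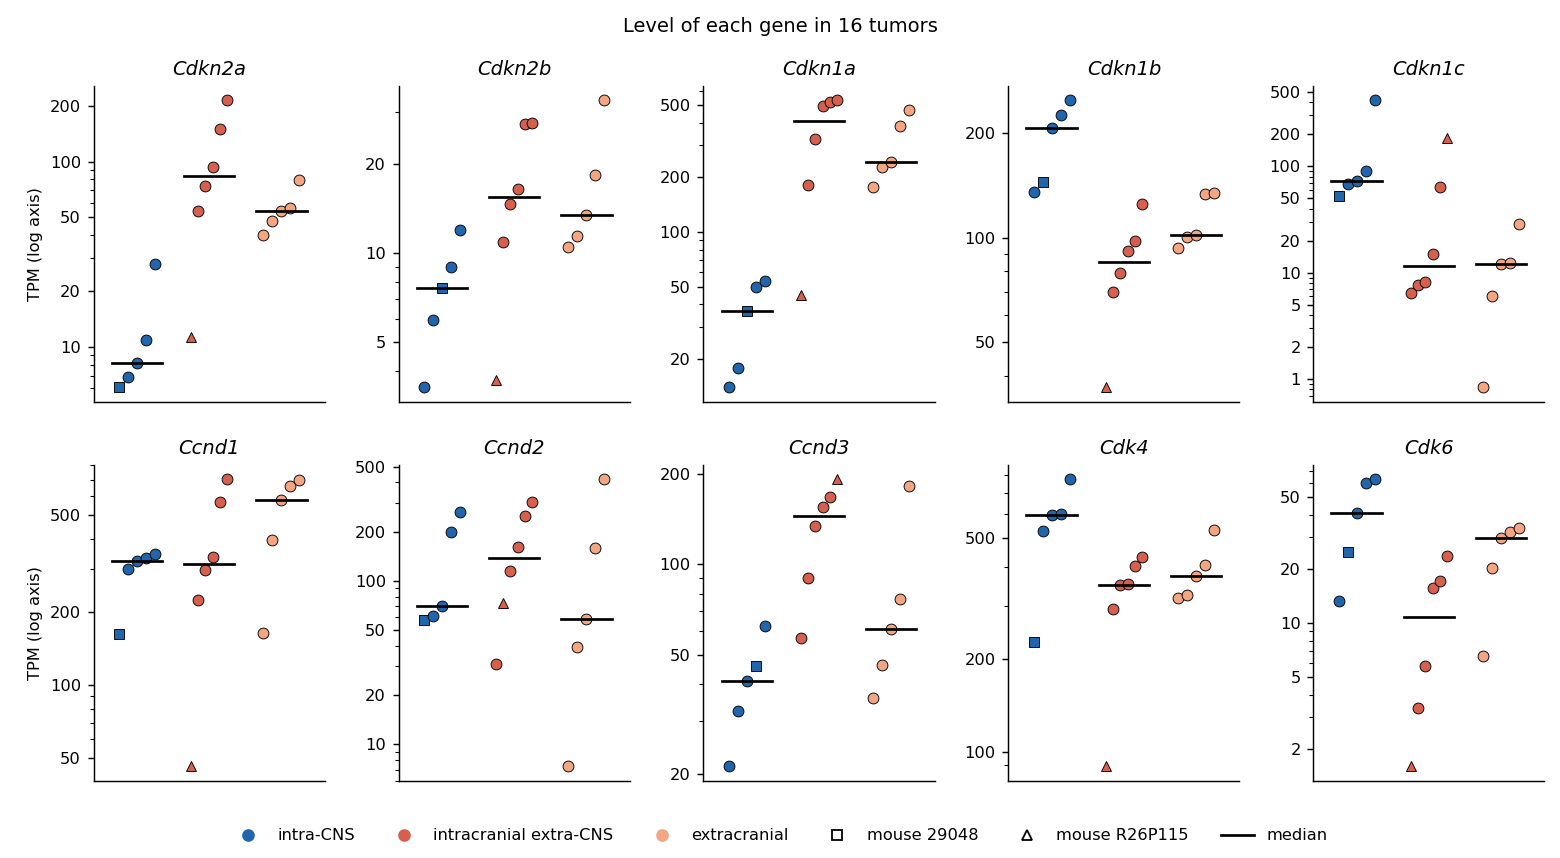
TPM on a log axis for each of the 10 genes in each tumor, by site, with the median of each site as a line and the tumors of 29048 (square) and R26P115 (triangle) marked. For Cdkn2a and Cdkn1a the extra-CNS tumors other than R26P115 sit above the intra-CNS tumors, and for Cdkn1b they sit below.

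Of the 3 D-type cyclins, 1 was called. Ccnd3 (ENSMUSG00000034165.16, chr17:47505051-47599691, plus strand), the cyclin typical of haematopoietic cells and of several other tissues, stood in intra-CNS tumors at 45.8 TPM in 29048, 40.9 in 38594A, 21.2 in 29050A, 32.5 in R26P98 and 62.2 in R26P87. It stood in extracranial tumors at 46.2 TPM in 43825B, 60.9 in 43987A, 182 in 43990A, 35.7 in 43998A and 76.6 in R26P123, and in intracranial ones the lowest was 56.7 TPM, the median 145 and the highest 192. The intracranial tumors were higher than nearly all intra-CNS tumors, and the extracranial ones overlapped with them. Ccnd3 was 3.93-fold lower in intra-CNS tumors (log2 fold change -1.98, SE 0.44; edgeR quasi-likelihood test, Benjamini-Hochberg adjusted p = 0.0029), and the value was -1.87 (adjusted p = 0.0069) without 29048 and R26P115.

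Ccnd1 (ENSMUSG00000070348.5, chr7:144929931-144939925, minus strand) had the highest median of the 3 cyclins in every group. It stood in intra-CNS tumors at 163 TPM in 29048, 299 in 38594A, 347 in 29050A, 323 in R26P98 and 333 in R26P87. It stood in extracranial tumors at 661 TPM in 43825B, 393 in 43987A, 164 in 43990A, 699.8 in 43998A and 577 in R26P123, and in intracranial ones the lowest was 46.3 TPM in R26P115, the median 316 and the highest 702. The 4 intra-CNS tumors besides 29048 lay close together, within 299 to 347 TPM, inside the range of the extra-CNS tumors. The difference was not called (log2 fold change -1.05, SE 0.46; edgeR quasi-likelihood test, Benjamini-Hochberg adjusted p = 0.093). It was called without R26P115 at -1.17 (adjusted p = 0.016) and without both tumors at -1.02 (adjusted p = 0.045), whereas limma on log2(TPM + 1) gave -0.27 (adjusted p = 0.718).

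Ccnd2 (ENSMUSG00000000184.12, chr6:127125162-127152193, minus strand), the D-type cyclin prominent in neural progenitors, ran from 57.2 to 265 TPM in intra-CNS, from 31.0 to 305 TPM in intracranial and from 7.32 to 419 TPM in extracranial tumors. It spread over more than any difference between groups, and was not called (log2 fold change -0.67, SE 0.70; edgeR quasi-likelihood test, Benjamini-Hochberg adjusted p = 0.479; without 29048 and R26P115, -0.54 and 0.606). On the TPM scale its sign turned, at 0.19.

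Of the kinases, Cdk4 (ENSMUSG00000006728.12, chr10:127063534-127067920, plus strand) was the most abundant of the 10 genes in intra-CNS tumors, at 227 TPM in 29048, 527 in 38594A, 599 in 29050A, 595 in R26P98 and 777 in R26P87. It stood in extracranial tumors at 325 TPM in 43825B, 407 in 43987A, 528 in 43990A, 319 in 43998A and 374 in R26P123, and in intracranial ones the lowest was 89.4 TPM in R26P115, the median 352 and the highest 432. Both tumors that stood apart held the lowest level of their group. The difference was not called (log2 fold change 0.12, with an interval of 2 standard errors each way from -0.45 to 0.69; edgeR quasi-likelihood test, Benjamini-Hochberg adjusted p = 0.763; without both tumors, 0.22 and 0.262). Myc, by comparison, was 9.98-fold lower in intra-CNS tumors in the same fit (log2 fold change -3.32, edgeR adjusted p = 0.00028).

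Cdk6 (ENSMUSG00000040274.11, chr5:3341485-3531008, plus strand), the kinase more tied to haematopoietic and neural progenitors, stood in intra-CNS tumors at 24.9 TPM in 29048, 63.0 in 38594A, 41.2 in 29050A, 59.7 in R26P98 and 13.2 in R26P87. It stood in extracranial tumors at 33.9 TPM in 43825B, 6.54 in 43987A, 20.3 in 43990A, 29.8 in 43998A and 32.3 in R26P123, and in intracranial ones the lowest was 1.60 TPM, the median 10.8 and the highest 23.6. The 3 highest levels were intra-CNS, and the rest overlapped. The difference was not called (log2 fold change 0.72, SE 0.56; edgeR quasi-likelihood test, Benjamini-Hochberg adjusted p = 0.327; without 29048 and R26P115, 0.73 and 0.291).

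Of the 10 genes, 4 were called between intra-CNS and extra-CNS tumors at an adjusted p under 0.05 and a fold above 2, where 26% of the 21854 genes tested were called, and all 4 were lower in intra-CNS tumors, as were 13.1% of all genes. With limma on log2(TPM + 1) 5 were called, where 24.8% of all genes were, of which Cdkn2a, Cdkn1a and Ccnd3 were lower and Cdkn1b and Cdkn1c higher. The median log2 fold change of the 10 was -0.86. Leaving out R26P115 gave 6 calls, with Ccnd1 and Cdkn1c added, where 30.5% of all genes were called, and E6 tumors alone gave 3, with Cdkn2b lost, where 16.9% were. The labels name no sequencing batch, but the mice are named by 2 schemes, numbers and an R26P prefix. Between intra-CNS and extra-CNS tumors the difference in mean log2(TPM + 1) was -2.98 for Cdkn2a, -1.26 for Cdkn2b, -3.32 for Cdkn1a and -1.27 for Ccnd3 among the numbered mice (3 against 8), and -1.64, -0.39, -2.68 and -1.46 in the same order among the R26P mice (2 against 3). For Ccnd1 the difference turned from -0.67 to 0.65 between the schemes. With the scheme as a covariate the same 4 genes were called.

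Markers of other cell types moved with the same comparison. In it edgeR called 12.9% of all genes higher and 13.1% lower in intra-CNS tumors. Of 10 macrophage or microglia markers 10 were called lower in intra-CNS tumors, and their summed level ran from 788 to 1272 TPM there and from 919 to 9947 TPM in extra-CNS tumors. Of 6 fibroblast markers 6 were called lower, with sums of 105 to 525.8 TPM against 545 to 7795 TPM, and of 8 lymphocyte markers 4, with sums of 2.56 to 8.18 TPM against 6.03 to 45.9 TPM. R26P115 held the lowest macrophage sum (919 TPM) and the lowest fibroblast sum (545 TPM) of the extra-CNS tumors, beside the lowest Cdkn2a, Cdkn2b and Cdkn1a. Of 10 oligodendrocyte markers 8 were called higher in intra-CNS tumors and none without 29048, and of 10 neuron markers 5 and of 6 astrocyte markers 2 were called higher, against 3 and 0 without 29048. Without 29048 the lymphocyte calls numbered 1, and 22.8% of all genes were called in either direction. Of 6 endothelial markers 2 and of 6 skeletal muscle markers 3 were called lower. No marker of the macrophage or fibroblast lists was at 0 in a whole group. Their part in the differences of the 10 genes was not tested.

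Within the extra-CNS tumors the question was whether the site outside the brain, intracranial or extracranial, went with a difference in these genes. None of the 10 genes was called by edgeR between the 6 intracranial and 5 extracranial tumors, none had an unadjusted p under 0.05 in this edgeR fit where 12.3% of all genes did, and none was called by DESeq2 or limma. In this comparison 0.0047% of the 21261 genes tested were called, which is 1 gene, and 2606 had an unadjusted p under 0.05, while DESeq2 called 490. The estimate furthest from 0 was that of Cdkn1c, 4.35-fold higher in intracranial tumors (log2 fold change 2.12, interval of 2 standard errors each way from -0.04 to 4.29; edgeR adjusted p = 0.448), and it was 0.76 without R26P115. For Cdk6 the log2 fold change was -1.15 (interval from -2.40 to 0.09), for Cdkn2a 0.84 (-0.24 to 1.91) and for Ccnd3 0.81 (-0.08 to 1.70). For Cdkn1a it was 0.20 (-0.80 to 1.21) and for Cdk4 -0.28 (-0.90 to 0.35). Of these genes, the interval lay within 2-fold in either direction for Cdk4 alone, and for the others it reached beyond 2-fold in 1 direction, lower in intracranial tumors for Cdk6 and higher for the rest. Among the remaining members, the interval also lay within 2-fold for Cdkn1b (-0.93 to 0.10). For Ccnd2 (-1.48 to 1.87) it reached beyond 2-fold in either direction. For Ccnd1 (-1.61 to 0.64) and Cdkn2b (-1.04 to 0.93) it reached beyond 2-fold only on the side lower in intracranial tumors. Without R26P115 the log2 fold changes were 1.08 for Cdkn2a (edgeR, unadjusted p = 0.015 and adjusted p = 0.390), 0.44 for Cdkn1a, 0.65 for Ccnd3, -0.92 for Cdk6 and -0.08 for Cdk4. With 43990A counted as intracranial, Ccnd3 was at 1.37 (edgeR, unadjusted p = 0.0029 and adjusted p = 0.266) and Cdkn1c at 2.61 (0.043 and 0.411), and DESeq2 gave Cdkn1c an unadjusted p of 0.028 and an adjusted p of 0.280, so that no member was called in these settings either. Within the numbered mice (4 against 4) the difference in mean log2(TPM + 1) was 0.80 for Cdkn2a, 0.72 for Cdkn1c and -0.44 for Cdk6, and among the R26P mice (2 against 1) it was -0.40, 2.05 and -3.30.

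Set against each extra-CNS site by itself, in a fit with 3 groups in which both comparisons share the intra-CNS tumors, the same 4 genes were called against the intracranial tumors, where 23.0% of genes were called, and these 4 and Cdkn1c against the extracranial tumors, where 25% were. Cdkn2a had a log2 fold change of -3.56 against intracranial and -2.72 against extracranial tumors, with adjusted p of 0.00083 and 0.0038 by edgeR. Cdkn1a had values of -3.84 and -3.64, Cdkn2b of -1.66 and -1.71, and Ccnd3 of -2.29 and -1.48. Cdkn1c was 8.30-fold higher in intra-CNS than in extracranial tumors (log2 fold change 3.05, SE 1.09; edgeR adjusted p = 0.046), but 0.91 on the log2 scale against intracranial tumors (adjusted p = 0.497). The call of Cdkn1c was lost on leaving out any of 9 single tumors, with adjusted p of 0.053 to 0.150 in those fits. Its log2 fold change ran from 2.08 without R26P87 to 3.65 without 43990A. The call of Ccnd3 against extracranial tumors was lost without 43990A, its highest extracranial value (log2 fold change -0.96, edgeR adjusted p = 0.067), or without 29050A (-1.32 and 0.052). It was also lost with 43990A counted as intracranial (-0.96 and 0.062) and with limma on log2(TPM + 1) (-0.81 and 0.163). Without 29048 and R26P115 together 5 genes were called against each site, the same 4 and Cdkn1c, where 24.8% and 25.4% of all genes were called. Cdkn1c was at 2.53 against intracranial (edgeR adjusted p = 0.048) and 3.26 against extracranial tumors (0.018).

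**Figure D2:**
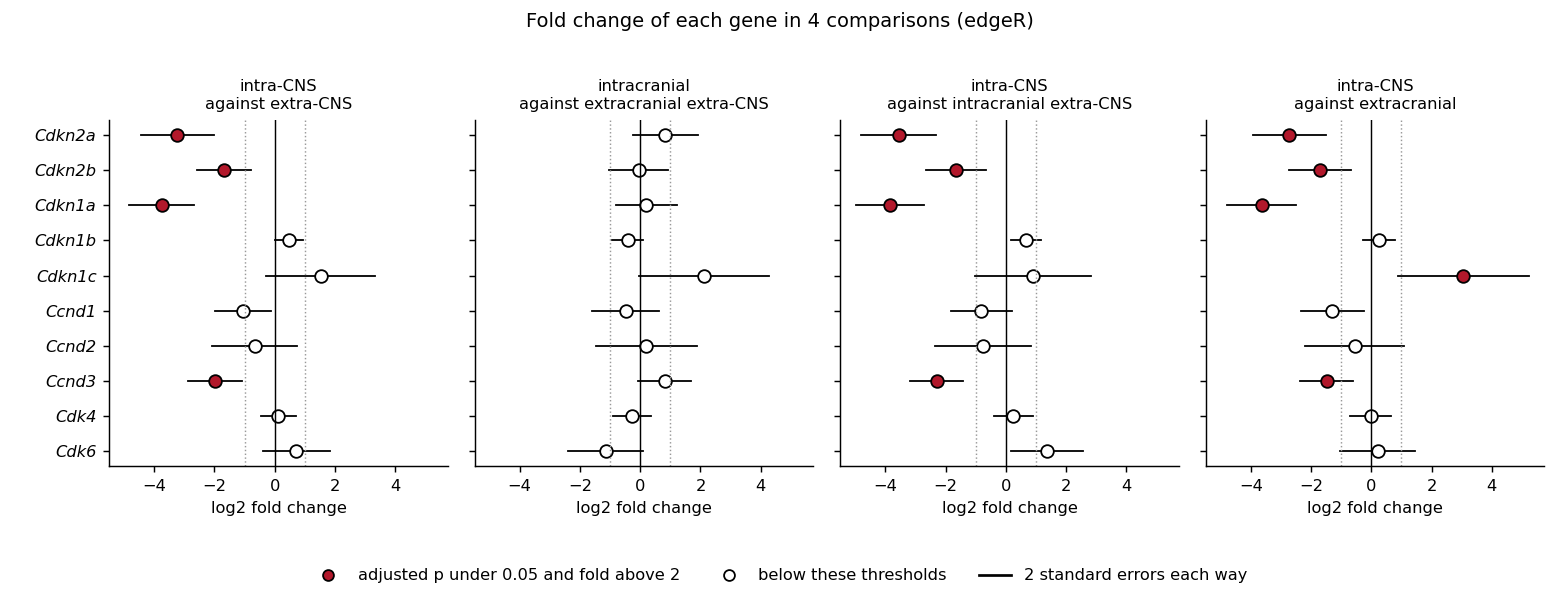
Log2 fold change of each gene by edgeR in the 4 comparisons, with lines of 2 standard errors each way and filled points for genes called at an adjusted p under 0.05 and a fold above 2. Cdkn2a, Cdkn2b, Cdkn1a and Ccnd3 lie to the left with filled points in each comparison of intra-CNS tumors. Ccnd1 and Ccnd2 also lie to the left there, with open points. No point is filled between the extra-CNS sites.

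TPM is a level per transcript length, so that the genes can be compared with each other within a tumor. By median the order in intra-CNS tumors was Cdk4, Ccnd1, Cdkn1b, Cdkn1c, Ccnd2, Cdk6, Ccnd3, Cdkn1a, Cdkn2a and Cdkn2b. Cdkn1a stood at rank 8 there, at rank 1 in intracranial and at rank 3 in extracranial tumors, and Cdkn1c at rank 4, 9 and 10. In intra-CNS tumors the range of each gene over the tumors overlapped with that of the next. Compared within each tumor, Cdk4 exceeded Ccnd1, Ccnd1 exceeded Cdkn1b, Ccnd2 exceeded Cdk6 and Cdkn1a exceeded Cdkn2a in 5 of 5 tumors, and Cdkn1b exceeded Cdkn1c and Cdkn2a exceeded Cdkn2b in 4 of 5. The order of Cdkn1c and Ccnd2, of Cdk6 and Ccnd3 and of Ccnd3 and Cdkn1a held in 2 or 3 of 5.

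The leading CIP/KIP transcript was Cdkn1b in most intra-CNS and Cdkn1a in most extra-CNS tumors, which is given as a description without a test. In intra-CNS tumors Cdkn1b was the leading CIP/KIP transcript in 4 of 5 tumors and Cdkn1c in 1, R26P87, and Cdkn1a made up 3.13% to 16.1% of their summed TPM. In extra-CNS tumors Cdkn1a led in 10 of 11 and made up 52.1% to 86.1% in those, and Cdkn1c led in R26P115. The summed CIP/KIP level nevertheless overlapped, at 234 to 571 TPM in intra-CNS and 266 to 675 TPM in extra-CNS tumors.

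Among the cyclins, Ccnd1 led in 5 of 5 intra-CNS tumors, with 52.0% to 73.0% of the summed D-type cyclin TPM. In extra-CNS tumors Ccnd1 led in 7 of 11, Ccnd2 in 29941C and 43987A, and Ccnd3 in R26P115 and 43990A. Ccnd1 ranged there from 14.9% to 94.2%, and the tumor with the highest share, 43998A, held 7.32 TPM of Ccnd2. The spread among extracranial tumors (68.3% ± 27.6, SD, n = 5) was wider than that among intra-CNS tumors (64.1% ± 8.94, SD, n = 5), and the means differed by less than either spread. Cdk4 made up 89.3% to 98.3% of the summed Cdk4 and Cdk6 TPM in intra-CNS tumors and 90.6% to 99.2% in extra-CNS tumors. When shares were taken from CPM, which keep the effect of transcript length, the mean share of Cdk4 was 62.2% in intra-CNS tumors.

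**Figure D3:**
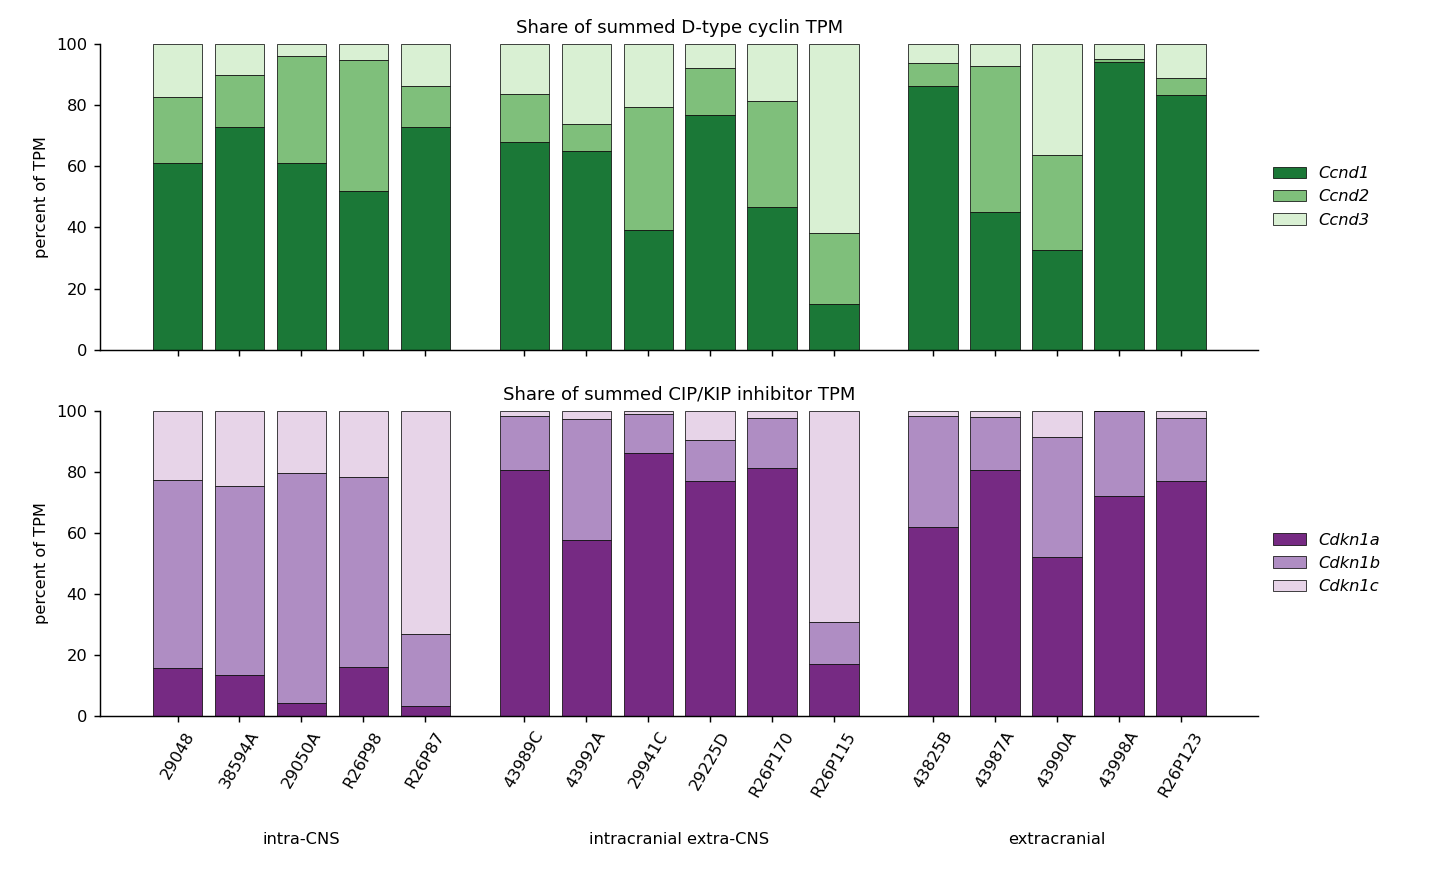
Percent of the summed TPM of the 3 D-type cyclins (top) and of the 3 CIP/KIP inhibitors (bottom) held by each gene, 1 bar for each tumor, grouped by site. Cdkn1a fills 52.1% or more of the bar in each extra-CNS tumor except R26P115 and at most 16.1% in each intra-CNS tumor, while no cyclin separates the sites.

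The level of the kinases against that of the INK4 genes was higher in each intra-CNS than in each extra-CNS tumor. The ratio of summed Cdk4 and Cdk6 to summed Cdkn2a and Cdkn2b TPM was 18.4 in 29048, 29.8 in 38594A, 54.7 in 29050A, 16.4 in R26P98 and 61.4 in R26P87. In the extra-CNS tumors its lowest value was 1.86, its median 5.27 and its highest 10.8, in 43990A. R26P115, whose INK4 sum of 15.03 TPM fell among those of intra-CNS tumors, had a ratio of 6.06, since its kinase sum was 91.0 TPM. This ratio was formed after the values were seen and is given as a description without a test.

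**Figure D4:**
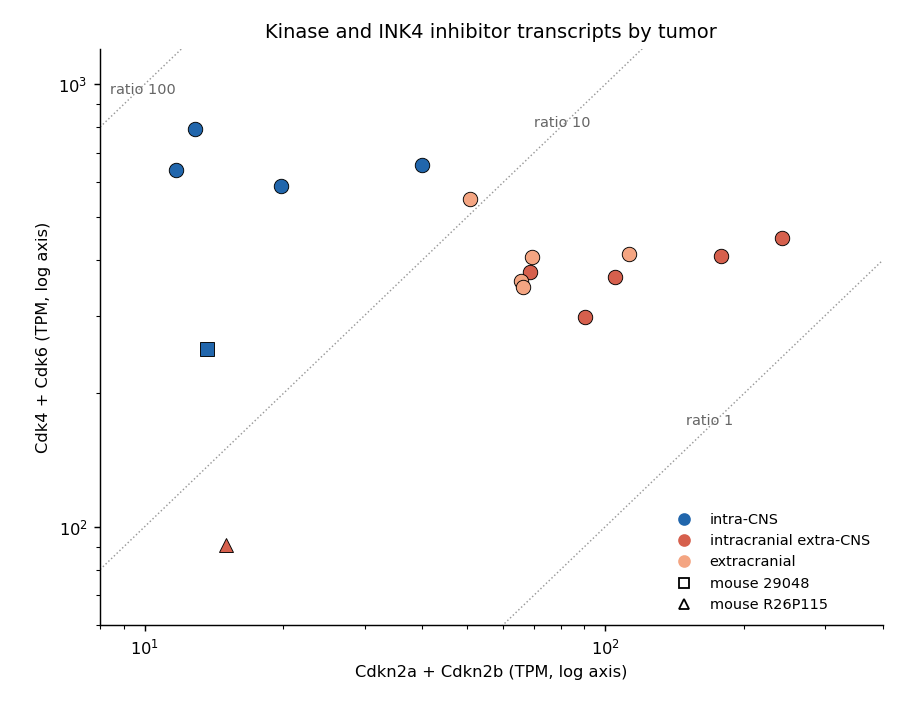
Summed TPM of Cdk4 and Cdk6 against that of Cdkn2a and Cdkn2b in each tumor, both on log axes, with dotted lines of equal ratio. The 5 intra-CNS tumors lie above the line of ratio 10, at 16.4 to 61.4, and 10 of the 11 extra-CNS tumors lie below it, the exception being 43990A at 10.8.

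Around these genes, the pathway was examined through gene lists. Of 5 further INK4 and pocket protein genes, Rb1, which encodes the retinoblastoma protein, was called and was 2.49-fold higher in intra-CNS tumors (log2 fold change 1.32, SE 0.20; edgeR adjusted p = 0.00016). It stood at 42.5 to 61.3 TPM in intra-CNS and 8.003 to 24.3 TPM in extra-CNS tumors, with no overlap. Of the 14803 genes with 50 or more counts on average, 17.2% lay higher in intra-CNS tumors without overlap. The log2 fold change of Rb1 was 1.41 (edgeR adjusted p = 0.00025) without 29048 and R26P115. Among E6 tumors alone the value was 0.73 and was not called (edgeR adjusted p = 0.079). The INK4 genes Cdkn2c and Cdkn2d had log2 fold changes of 0.07 and 0.08. None of 10 E2F factors and partners and none of 9 genes of the cyclin E, cyclin A and Cdk2 module was called by edgeR. The same test called 26% of all genes. Its unadjusted p was under 0.05 for 2 of each list and for 9706 of the 21854 genes tested. Its adjusted p was under 0.05 for the 2 E2F genes, at a fold under 2, for none of the cyclin E list and for 7236 of all genes. DESeq2 called 0 and 1 and limma 1 and 1, where they called 29.7% and 24.8% of all genes. By edgeR 1 of the 10 E2F genes was called higher without R26P115, without both tumors, among E6 tumors alone and against extracranial tumors, and none of the cyclin E list was. In these settings 16.4%, 14.2%, 6.29% and 12.1% of all genes were called higher, in that order. None of 21 proliferation genes was called by edgeR, where 26% of all genes were. None had an unadjusted p under 0.05 by edgeR, where 9706 of 21854 genes did. DESeq2 called 0, where 29.7% of all genes were called. The median log2 fold change of the 21 was -0.31 against -0.15 over all genes. It was 0.28 on the log2(TPM + 1) scale, where limma called 1 higher and 18.7% of all genes. Without R26P115 edgeR called 1 lower, where 14.2% of all genes were, and without both tumors none.

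Of 14 genes of the p53 axis 7 were called lower in intra-CNS tumors and 0 higher, where 13.1% of all genes were called lower, with a median log2 fold change of -1.13. Among them Eda2r, a death receptor of the TNF receptor family, had a log2 fold change of -2.67 (SE 0.77), Phlda3, a repressor of Akt, of -2.32 (SE 0.40), Ccng1, which encodes cyclin G1, of -1.75 (SE 0.31) and Mdm2, the ubiquitin ligase of p53, of -1.39 (SE 0.26). The gene for p53 itself was not called (edgeR adjusted p = 0.270). On the log2(TPM + 1) scale limma called 2 of the 14, both lower, where 6.06% of all genes were called lower. By edgeR 10 were called without R26P115, all lower, where 14.2% of all genes were, and 8 without both tumors, where 12.9% were. Against intracranial tumors alone 10 were called lower, where 12.2% of all genes were. Against extracranial tumors alone 4 were, where 12.9% of all genes were. Of 15 Polycomb genes, whose products repress the INK4 locus in many cell types, 4 were called higher and 0 lower in intra-CNS tumors, where 12.9% of all genes were called higher and 26% in either direction: Phc1 (log2 fold change 2.42, SE 0.25), Cbx2 (1.31, SE 0.38), Ezh2 (1.19, SE 0.36) and Ring1 (1.11, SE 0.20). With E6 tumors alone edgeR called 1 of the 15 higher, where 6.29% of all genes were called higher, and without 29048 and R26P115 it called 4, where 14.2% were. Against intracranial tumors alone it called 4 higher, where 10.8% of all genes were, and against extracranial tumors 1, where 12.1% were. Against extracranial tumors 3 were called without 29048 and R26P115, where 25.4% of all genes were called in either direction. By limma 5 were called there, where 23.2% of all genes were called, 17.3% of them all being higher calls.

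Within the 11 extra-CNS tumors, 8 relations on the log2(TPM + 1) scale were computed. Cdkn2a and Cdkn2b gave a Pearson r of 0.84 (permutation p = 0.0028, Benjamini-Hochberg adjusted 0.019) and a Spearman rho of 0.65 (permutation p = 0.037, adjusted 0.148), with r of 0.55 without the 2 tumors farthest from the median and 0.65 without R26P115. Cdkn1c and Igf2, a growth factor gene of the neighbouring imprinted domain, gave an r of 0.76 (permutation p = 0.0047, adjusted 0.019) and a rho of 0.73 (permutation p = 0.015, adjusted 0.117), with r of 0.63 without the 2 farthest tumors and 0.71 without R26P115. Cdk4 and Myc gave an r of 0.93 (permutation p = 0.0091, adjusted 0.023) and a rho of 0.56 (permutation p = 0.075, adjusted 0.149), but r fell to 0.45 without R26P115 and 0.23 without the 2 farthest tumors, so that the relation rests on those tumors. The same was seen for Cdk4 and Mki67, with an r of 0.85 (permutation p = 0.011, adjusted 0.023), a rho of 0.37 (permutation p = 0.259, adjusted 0.415) and an r of -0.09 without the 2 farthest. Cdkn1a and Mdm2, both targets of p53, gave an r of 0.09 (permutation p = 0.772, adjusted 0.882), and 0.55 without R26P115. The other relations gave r of 0.56 for Cdkn2a and Mtap, -0.15 for Ccnd1 and Ccnd2 and -0.05 for Ccnd2 and Mki67, with adjusted permutation p of 0.105, 0.867 and 0.893. Among the 8 numbered mice r was 0.56 for Cdkn2a with Cdkn2b, 0.70 for Cdkn1c with Igf2 and 0.50 for Cdk4 with Myc, and the 3 R26P mice were too few for a value.

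**Figure D5:**
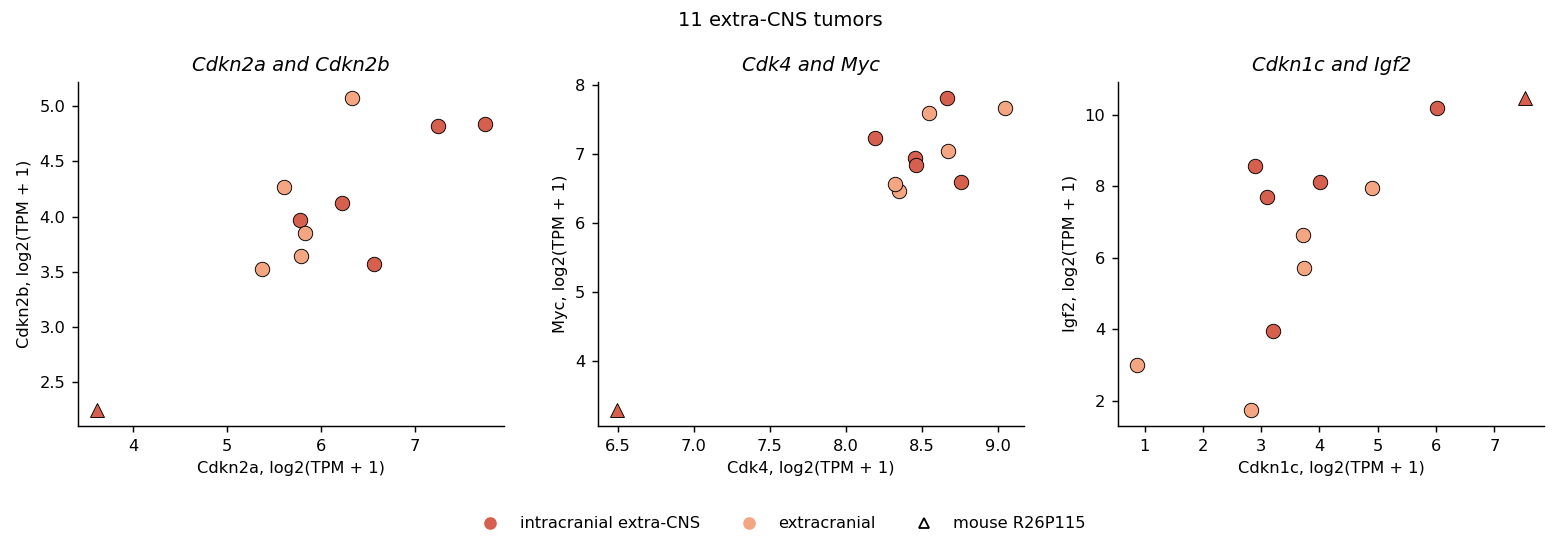
Log2(TPM + 1) of Cdkn2a and Cdkn2b, of Cdk4 and Myc and of Cdkn1c and Igf2 in the 11 extra-CNS tumors, by site, with R26P115 as a triangle. In the middle plot R26P115 lies alone at the lower left and r is 0.45 without it.

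The genes whose levels followed the 10 most closely over these 11 tumors, among 14260 genes compared, were listed as a description. For Cdkn2a they were Edem2 (r = 0.96) and 4930429B21Rik (0.95), for Cdkn2b Nln (0.93) and Tmem43 (0.90), for Cdkn1a Btg2 (0.96) and Frmd8 (0.95), for Cdkn1b Mtmr14 (0.96) and Tfap4 (0.94), and for Cdkn1c Daam2 (0.94) and Ptpru (0.91). For Ccnd2 they were Uhrf1bp1 (0.91) and Zkscan2 (0.88), for Ccnd3 Sipa1l1 (0.91) and Efemp1 (0.89), for Cdk4 Cenpt (0.99) and the gene for p53 (0.98), for Cdk6 Dusp22 (0.95) and Ppp2r5a (0.93), and for Ccnd1 a gene known only by a sequence identifier (0.95) and Twf2 (0.94). The points share R26P115, and without it these r ran from 0.79 to 0.93.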

How the data were processed

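RNA was sequenced as stranded, polyadenylated, paired-end libraries from 16 frozen macrodissected tumors. The processing notes name Trim Galore, FastQC, STAR 2.5.3a, Picard and genome build mm10. The authors deposited whole-number read counts per gene (none normalized) and TPM values, which are scaled for gene length and depth and sum to 1000000 in each tumor. No column was left unmapped. Total counts per tumor ranged from 17889968 to 110177889 (median 30905046), and counting error is the only error these totals bound.

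Groups followed the labelled tumor location. Counts were tested with edgeR 4.0.16 (TMM, quasi-likelihood test, any gene with a count) in R 4.3.3, over all genes, with Benjamini-Hochberg adjustment. Calls needed an adjusted p under 0.05 together with a log2 fold change beyond 1 in either direction. Intra-CNS was compared with extra-CNS in a fit of 16 tumors, the extra-CNS sites with each other in a fit of 11, and intra-CNS with each site in a fit of 3 groups. DESeq2 1.42.0 and limma 3.58.1 on log2(TPM + 1), with a pseudocount of 1, were alternatives, beside other size factors, a low count filter, a naming scheme covariate, E6 tumors alone, tumors left out and another site for 43990A. Correlations used 100000 permutations (scipy 1.17.1), two-sided. The edgeR fits were tested on simulated counts with 200 changed genes. Between intra-CNS and extra-CNS tumors they called 49.5% of 4-fold and 75% of 8-fold changes, with 9 and 17 false calls. Between the extra-CNS sites they called 32% and 71%, with 1 and 3 false calls.

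The members and lists were chosen with earlier results of these data known. Named genes were the 10 members, at most 4 called genes of each list by size of change with a mean count of at least 50, neighbours, partners in relations, and the 2 genes most correlated with each member. Gene positions are from GENCODE mouse release 21 (GRCm38), which held 24490 of the symbols.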

Additional observations from a re-analysis of the deposited data

Results flagged for a closer look

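In 45 groups of 4 to 10 tumors, 5 held 1 tumor far from the others of its group by Dixon's test, and chance alone marks about 1 in 20 groups. Cdkn1c was high in the intra-CNS tumor of R26P87, at 8.71 on the log2(TPM + 1) scale against 5.75 to 6.50 in the others. Ccnd1 was low in the intra-CNS tumor of 29048, at 7.36 against 8.23 to 8.44. Cdk4 was low in the intracranial tumor of R26P115, at 6.50 against 8.19 to 8.76, and the share of Ccnd3 in D-type cyclin TPM was high there, at 61.8% against 7.72% to 26.1%. That share was also high in the extracranial tumor of 43990A, at 36.1% against 4.81% to 11.1%.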

How the results depend on the processing

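No paired analysis was possible because no mouse gave more than 1 tumor and the labels number no replicates. Leaving out each tumor in turn gave 4 to 6 members called between intra-CNS and extra-CNS tumors, 0 to 0 between the extra-CNS sites, 3 to 4 against intracranial and 3 to 6 against extracranial tumors (3 without 43987A or 29050A). In the same fits 21.9% to 30.5%, 0% to 0.0142%, 18.7% to 27.3% and 20.7% to 27.7% of all genes were called, in that order. With limma on log2(TPM + 1), 3 were called against extracranial tumors, where 23.2% of all genes were. The call of Cdkn2b against intracranial tumors was lost under limma and without 29050A, and against extracranial tumors under limma and without 43987A. The call of Ccnd3 against extracranial tumors was also lost under limma. Shares of Cdk4 taken from CPM were 62.2%, 80.1% and 66.9% in intra-CNS, intracranial and extracranial tumors.

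In the fits, signs of fold changes turned only for genes that were not called. Between intra-CNS and extra-CNS tumors these were Ccnd2 under limma (0.19) and Cdk4 on leaving out tumors (-0.035 to 0.32). Between the extra-CNS sites they were Cdkn2b without 29048 and R26P115 (0.15) and on leaving out tumors (-0.25 to 0.32), Cdkn1a under limma (-0.071) and with 43990A counted as intracranial (-0.059), and Ccnd2 on leaving out tumors (-0.11 to 1.29). Against intracranial tumors Cdkn1c ran from -0.063 to 2.32. Outside the fits, some differences in mean log2(TPM + 1) also turned sign between the numbered and the R26P mice. Among them were Ccnd1 between intra-CNS and extra-CNS tumors (-0.67 and 0.65) and, between the extra-CNS sites, Cdkn2a (0.80 and -0.40) and Cdkn1a (0.46 and -1.35). Among correlations, Cdkn1a with Mdm2 was -0.023 on normalized CPM and -0.10 to 0.55 on leaving out tumors, Ccnd1 with Ccnd2 -0.34 to 0.079, Cdk4 with Mki67 -0.094 without the 2 farthest tumors, and Ccnd2 with Mki67 0.061 without them and -0.17 to 0.11 on leaving out tumors. The causes were not tested. The lowest count of a member was 22, for Cdkn1c in 43998A.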

Other observations

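Of 9 genes for turnover of the inhibitors and cyclins, 1 was called higher and 1 lower in intra-CNS tumors by edgeR, where 12.9% and 13.1% of all genes were. With limma on log2(TPM + 1) 4 were called higher and 0 lower, where 18.7% and 6.06% of all genes were. Without R26P115 edgeR called 1 higher and 3 lower, where 16.4% and 14.2% of all genes were. Fbxw7, the ubiquitin ligase subunit known for cyclin E, had a log2 fold change of 1.40 (SE 0.27, edgeR adjusted p = 0.00093), and Fbxo4, a ligase subunit reported for cyclin D1, of -1.31 (SE 0.33, edgeR adjusted p = 0.0063). None of 9 imprinted neighbours of Cdkn1c and none of 7 atypical cyclin D partners and kinase substrates was called by edgeR, with 1 and 2 of them at an unadjusted p under 0.05, while DESeq2 called 1 and 0 and limma 0 and 1. Without R26P115 edgeR called 1 of the imprinted neighbours, lower in intra-CNS tumors. Without 29048 and R26P115 edgeR called 0 of both lists and 1 higher and 1 lower of the turnover list, where 14.2% and 12.9% of all genes were.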
